A study of Mus musculus with 8 samples.

Results

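The non-collagenous part of the extracellular matrix was examined in RNA from sorted tumor and lymph node (LN) T cells: 44 genes chosen by name for fibronectin and the matricellular proteins, the small leucine-rich and large proteoglycans, the laminins and nidogens, the proteins of elastic fibres and microfibrils, and the enzymes and chaperones that process and crosslink collagen. Of these genes, chosen with earlier results of these data known, 41 were measured among 18193. *Fbn1* and *Efemp2* were not analysed here, and the probe sets of *Loxl2* also name another gene and were left out. Female C57BL/6 mice of 6 to 8 weeks carried subcutaneous MC38 tumors, a mouse colon carcinoma line, and received either 5 Gy of whole-body ionizing radiation (IR) 5 h before their organs were taken or no IR. CD3+CD8+CD44+CD62L- cells, an antigen-experienced T cell gate, were sorted after positive selection of CD8+ cells, and those of 4 mice were pooled for each sample. There were 4 groups of 2 arrays, LN no IR, LN IR, tumor no IR and tumor IR, from 2 experiments that each gave 4 samples. The labels name no engineered allele, and the LN came from the same tumor-bearing animals, with nodes that drain the tumor and nodes that do not combined. Tumors were digested with Liberase TM and DNase I and spun in Percoll, while LN were pressed through a mesh, so that tissue and dissociation cannot be told apart. With 2 pools a group, p-values measure only the spread between pools.

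Genes that mark T cells were bright in every sample, and the tumor sorts also held RNA of genes that mark other cells. The mean of 11 T cell markers lay between 11.00 and 11.73 on the log2 intensity scale on all 8 arrays, and 0 of the 11 passed the test between tissues in either comparison by limma. The mean of 17 macrophage and monocyte markers was 6.42 and 6.96 (no IR) and 6.69 and 6.97 (IR) on the LN arrays, and 10.23 and 11.01 (no IR) and 8.99 and 10.35 (IR) on the tumor arrays, with 14 of 17 higher in the tumor without IR and 13 with IR. *Lyz2* passed in both comparisons and *Ctsb*, which was bright in LN too, in neither. The mean of 15 fibroblast markers that are not matrix genes was 5.63 to 5.71 in LN and 6.50 to 6.88 in the tumor, with 5 of 15 higher without IR (*Tbx18*, *Twist1*, *Islr*, *Pdpn* and *Prrx1*) and 6 with IR. Of that list *Fap* and *Tcf21* stayed under the lower quartile of intensity on all 4 tumor arrays. Of the lists for pericytes, endothelium, epithelium, LN stroma, platelets, neutrophils and B cells, 0 of 12, 0 of 12, 1 of 13, 1 of 6, 1 of 8, 0 of 7 and 0 of 7 were higher in the tumor without IR, and 2 B cell genes were lower. With IR the counts higher were 1, 0, 1, 0, 1, 0 and 0, with 1 pericyte and 2 B cell genes lower. Under the lower quartile on all 4 tumor arrays were 3 of 12 endothelial genes (*Cdh5*, *Tek* and *Robo4*), 1 of 13 epithelial, 1 of 8 platelet and 1 of 7 B cell genes, and the others of those lists were above it on at least 1 tumor array. What part these cells had in the values below was not tested, and in such bulk samples fewer cells of a type and less RNA per cell cannot be told apart.

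The extracellular matrix is a network of collagens and glycoproteins laid down mainly by fibroblasts and other mesenchymal cells, with contributions from endothelium, epithelium and macrophages. Fibronectin and the laminins hold cells through integrins, the matricellular proteins tune that adhesion without bearing load, and proteoglycans space collagen fibrils and bind growth factors. The latent TGFβ binding proteins and fibrillin microfibrils store TGFβ in an inactive form, and lysyl oxidases join collagen and elastin chains by covalent crosslinks. T cells bind to and move along this network through integrins.

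In the tumor sorts, 16 of 41 measured matrix genes were higher than in LN without IR, which is 39.0% beside 4.5% of all genes, and 0 were lower, beside 1.04% of all genes. With IR the count was 21 of 41, or 51.2%, beside 4.8% of all genes, and again 0 were lower, beside 2.0%. Since the list was chosen with earlier results of these data known, these shares describe it and are no independent check. A gene was counted when the limma adjusted p was under 0.1 and the tumor and LN means differed by at least 1 on the log2 scale, where 1 is a 2-fold difference. The median difference over the 41 genes was 0.62 without IR and 1.19 with IR, beside −0.09 and 0.06 over all genes. With the dimmer 50% of probe sets left out, the median without IR was 1.87 over the 20 of these genes still tested, beside −0.04 over all genes still tested. With the most variable probe set of each gene it was 1.21, beside −0.09 over all genes. With IR the median was 1.97 with the dimmer probe sets left out. Both rules choose probe sets by values that include the tumor arrays, and so can favour those that differ between tissues. These medians are therefore no independent check of the difference. Both tumor arrays lay above both LN arrays for 25 genes without IR (beside 21.3% of all genes) and 34 with IR (beside 30.1%), and below them for 5 (beside 35.2%) and 1 (beside 20.0%). All 4 tumor arrays lay above all 4 LN arrays for 21 of the 41, beside 10.9% of all genes. The same 16 genes counted without IR were counted with IR, and *Postn*, *Prelp*, *Ogn*, *Nid1* and *Ltbp3* were counted with IR alone. Without IR *Postn* also passed in the robust fit that the study's methods name, with a replicate block and with T cell scaling, and *Ltbp3* with T cell scaling. Whether those 5 differ between the 2 comparisons is given by the test of the IR effect between tissues, which none of them passed. Leaving out the second array of tumor IR lost some of the 21 calls with IR. With the dimmer 50% of probe sets left out the count with IR was 13, since the other genes were then not tested.

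**Figure D1:**
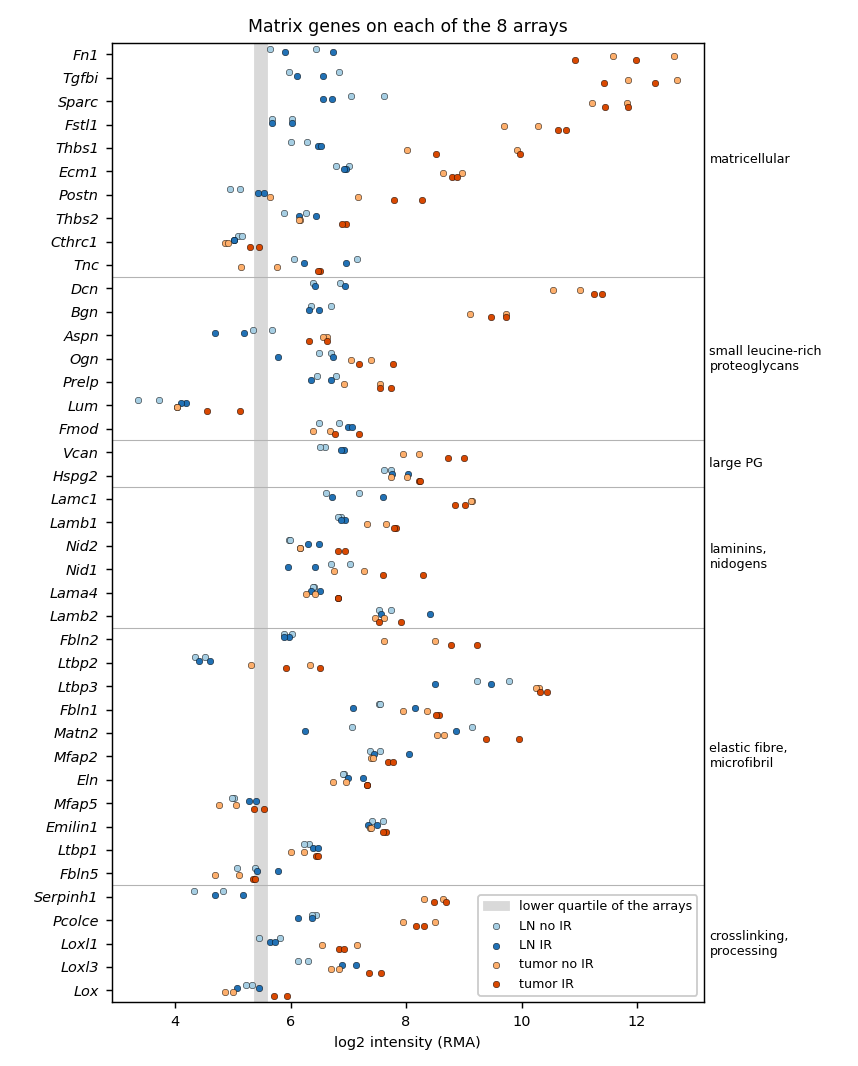
Log2 intensity (x axis) of the 41 matrix genes (rows, by role) on each of the 8 arrays, with 1 point per array coloured by group and the range of the arrays' lower quartiles of intensity in grey. *Fn1*, *Tgfbi*, *Sparc* and *Dcn* have all 4 tumor points above 10 and all LN points below 8, whereas *Cthrc1*, *Lum* and *Mfap5* lie under the lower quartile of each array in all 8 samples.

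Fibronectin and the matricellular proteins held the largest differences, with 6 of 10 higher without IR and 7 with IR. *Fn1* encodes fibronectin, the fibril-forming ligand of several integrins. It read 5.65 and 6.44 (no IR) and 5.90 and 6.74 (IR) on the LN arrays, and 11.59 and 12.64 (no IR) and 10.93 and 11.97 (IR) on the tumor arrays. The tissues were far apart in either condition, by 6.07 ± 0.51 (adjusted p = 0.00107) without IR and 5.13 ± 0.51 (adjusted p = 0.00220) with IR (log2, ± SE, n = 2 arrays per group). *Tgfbi*, a TGFβ-induced adaptor between collagen and integrins, read 5.97 and 6.84 (no IR) and 6.56 and 6.12 (IR) in LN, and 11.83 and 12.68 (no IR) and 11.42 and 12.31 (IR) in the tumor. The second array of each tumor group was the higher, and no tumor array came near an LN array. Its difference, 5.85 ± 0.44 (adjusted p = 0.000698) without IR and 5.53 ± 0.44 (adjusted p = 0.000808) with IR, was of similar size. *Sparc*, a collagen-binding matricellular protein, read 7.05 and 7.61 (no IR) and 6.56 and 6.72 (IR) in LN, against 11.83 and 11.22 (no IR) and 11.44 and 11.85 (IR) in the tumor. It differed by 4.20 ± 0.28 (adjusted p = 0.000499) without IR and 5.01 ± 0.28 (adjusted p = 0.000255) with IR. For these 3 genes the lowest tumor array was more than 3 units above the highest LN array.

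*Fstl1*, a secreted follistatin-like glycoprotein, had the smallest adjusted p of the 41 genes in both comparisons. Its LN arrays read 5.68 and 6.02 (no IR) and 6.02 and 5.67 (IR), and its tumor arrays read 10.29 and 9.70 (no IR) and 10.77 and 10.63 (IR). The differences were 4.14 ± 0.24 (adjusted p = 0.000353) without IR and 4.86 ± 0.24 (adjusted p = 0.000197) with IR. *Thbs1*, thrombospondin-1, which can activate latent TGFβ, read 6.29 and 6.01 (no IR) and 6.47 and 6.53 (IR) in LN, and 8.01 and 9.92 (no IR) and 8.52 and 9.97 (IR) in the tumor. Within each tumor group its 2 arrays lay more than 1 unit apart, and the differences between tissues, 2.82 ± 0.65 (adjusted p = 0.0565) without IR and 2.75 ± 0.65 (adjusted p = 0.0485) with IR, had the largest SE among the genes that passed. *Ecm1*, a secreted glycoprotein known from the skin, was close between the arrays of each group, reading 6.79 and 7.01 (no IR) and 6.97 and 6.93 (IR) in LN, and 8.64 and 8.97 (no IR) and 8.79 and 8.88 (IR) in the tumor. The tumor was above LN by 1.91 ± 0.17 (adjusted p = 0.00124) without IR and 1.88 ± 0.17 (adjusted p = 0.00132) with IR.

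*Postn* encodes periostin, a matricellular protein that promotes collagen crosslinking. It read 4.95 and 5.13 (no IR) and 5.43 and 5.54 (IR) in LN, where 4 of 4 arrays were under their lower quartile, and 5.65 and 7.17 (no IR) and 7.78 and 8.28 (IR) in the tumor. The 2 tumor arrays without IR were far apart, and the difference there, 1.37 ± 0.45, did not pass (adjusted p = 0.162), while with IR it was 2.55 ± 0.45 (adjusted p = 0.0186). Without the first tumor no IR array *Postn* passed without IR as well. *Thbs2*, *Cthrc1* and *Tnc* passed in neither condition. *Tnc*, tenascin-C, a hexameric glycoprotein of wounds and tumor stroma, read 7.14 and 6.06 (no IR) and 6.96 and 6.22 (IR) in LN, and 5.15 and 5.76 (no IR) and 6.51 and 6.48 (IR) in the tumor. The 2 tumor no IR arrays were the lowest of the 8. Its differences were −1.14 ± 0.40 without IR (adjusted p = 0.200) and −0.10 ± 0.40 with IR (adjusted p = 0.916), and it counted as lower without IR with array weights on all arrays, and also once the second LN array of that condition was left out. *Thbs2*, a second thrombospondin, ranged from 5.88 to 6.44 in LN and from 6.15 to 6.96 in the tumor. *Cthrc1*, a secreted protein of repairing tissue, ranged from 5.02 to 5.16 in LN and from 4.86 to 5.46 in the tumor. The call of *Thbs1* without IR was lost without the first or second LN array of that condition, or without the second tumor array, while with IR the calls of *Postn* and *Thbs1* were lost without the second tumor IR array, and that of *Thbs1* also without the second LN IR array.

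Promoter sequence was set beside these values for the 27 of the 41 measured genes that have an entry in the RefSeq promoter table (GRCm38.p6), which gives 250 bases before and 50 after a gene's start. The window was searched on both strands for GGGCGG (the GC box read by Sp factors), TATAAA (the TATA box), TGANTCA (the AP-1 site), GGAATG (read by TEAD factors) and CAGACA (a SMAD element). At least 1 GGGCGG was in 16 of 27 genes, beside 38.2% of the 27025 genes in the table. It was in 9 of 11 genes that were higher in both conditions, 1 of 5 that were higher with IR alone, and 6 of 11 that passed in neither. CAGACA was in 13 of 27 (beside 23.6% of genes). It was in 3 of 11 genes that were higher in both conditions, 2 of 5 with IR alone and 8 of 11 in neither. TATAAA was in 6 (beside 15.7%), GGAATG in 3 (beside 16.6%) and TGANTCA in 2 (beside 8.97%). These are matches of letters in one window and describe no binding. The 150 bases before the start are printed for 4 genes with differences between tissues above 3 units, *Tgfbi*, *Fstl1* and *Serpinh1*, which have GGGCGG in them, and *Sparc*, which has none in those bases. GGGCGG or its complement is in capitals, and each sequence runs 5′ to 3′ on the gene's strand.
Tgfbi (chr13:56609436-56609585, plus strand): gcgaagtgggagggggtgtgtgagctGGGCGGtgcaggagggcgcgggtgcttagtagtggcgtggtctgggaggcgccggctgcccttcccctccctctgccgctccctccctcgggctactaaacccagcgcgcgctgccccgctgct
Fstl1 (chr16:37776905-37777054, plus strand): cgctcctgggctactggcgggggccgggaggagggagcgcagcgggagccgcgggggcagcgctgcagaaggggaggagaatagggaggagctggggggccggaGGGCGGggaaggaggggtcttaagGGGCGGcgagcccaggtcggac
Serpinh1 (chr7:99353240-99353389, minus strand): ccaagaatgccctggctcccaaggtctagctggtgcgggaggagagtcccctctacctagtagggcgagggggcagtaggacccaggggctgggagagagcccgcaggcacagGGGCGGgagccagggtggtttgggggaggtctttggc
Sparc (chr11:55420081-55420230, minus strand): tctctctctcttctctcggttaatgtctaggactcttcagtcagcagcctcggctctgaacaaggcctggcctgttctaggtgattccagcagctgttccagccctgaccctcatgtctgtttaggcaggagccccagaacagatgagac

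Among the small leucine-rich proteoglycans, which coat collagen fibrils and set their diameter, 3 of 7 were higher without IR and 5 of 7 with IR. *Dcn*, decorin, which binds collagen I and TGFβ, read 6.39 and 6.86 (no IR) and 6.42 and 6.94 (IR) in LN, and 11.01 and 10.55 (no IR) and 11.39 and 11.25 (IR) in the tumor. The tissues did not overlap, and the tumor IR arrays were slightly above the tumor no IR arrays. The differences were 4.16 ± 0.26 (adjusted p = 0.000409) without IR and 4.64 ± 0.26 (adjusted p = 0.000255) with IR. *Bgn*, the related biglycan, read 6.35 and 6.69 (no IR) and 6.32 and 6.49 (IR) in LN, and 9.72 and 9.10 (no IR) and 9.48 and 9.72 (IR) in the tumor. IR and no IR arrays overlapped within each tissue, and the tissues were far apart. Tumor exceeded LN by 2.89 ± 0.24 (adjusted p = 0.00101) without IR and 3.20 ± 0.24 (adjusted p = 0.000698) with IR. *Aspn*, asporin, read 5.68 and 5.35 (no IR) and 5.20 and 4.68 (IR) in LN, around the lower quartile, and 6.62 and 6.56 (no IR) and 6.63 and 6.32 (IR) in the tumor. All tumor arrays were above all LN arrays. Its difference of 1.08 ± 0.22 without IR (adjusted p = 0.0384) was near the 2-fold limit, and with IR it was 1.54 ± 0.22 (adjusted p = 0.00954).

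*Ogn* and *Prelp* passed with IR only. *Ogn*, osteoglycin, read 6.49 and 6.70 (no IR) and 5.79 and 6.74 (IR) in LN, and 7.05 and 7.40 (no IR) and 7.77 and 7.18 (IR) in the tumor. Its 4 tumor arrays were above its 4 LN arrays by a small margin, and the differences were 0.63 ± 0.34 (adjusted p = 0.411) without IR and 1.21 ± 0.34 (adjusted p = 0.0787) with IR. *Prelp*, a proline- and arginine-rich member that anchors basement membranes to collagen, read 6.46 and 6.78 (no IR) and 6.35 and 6.69 (IR) in LN, and 7.54 and 6.93 (no IR) and 7.74 and 7.54 (IR) in the tumor. The margin was narrow, with the lowest tumor array just above the highest LN array. It differed by 0.61 ± 0.25 (adjusted p = 0.262) without IR and 1.12 ± 0.25 (adjusted p = 0.0389) with IR. *Fmod*, fibromodulin, overlapped between tissues, with 6.49 to 7.07 in LN and 6.39 to 7.18 in the tumor. *Lum*, lumican, a major proteoglycan of the cornea and of fibroblasts, was under the lower quartile on all 8 arrays, from 3.37 to 4.19 in LN and from 4.04 to 5.13 in the tumor. The call of *Aspn* without IR was lost without the second LN array or either tumor array of that condition, that of *Prelp* with IR without the first LN array or either tumor array of that condition, and that of *Ogn* without any one of 7 of the 8 arrays.

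Of the large proteoglycans, *Vcan* was higher in both conditions and *Hspg2* in neither. *Vcan* encodes versican, the hyaluronan-binding proteoglycan of provisional matrix. It read 6.59 and 6.51 (no IR) and 6.92 and 6.87 (IR) in LN, and 8.23 and 7.94 (no IR) and 9.0 and 8.72 (IR) in the tumor. Tumor arrays were all above LN arrays, and in each tissue both IR arrays were above both no IR arrays. The gap was 1.54 ± 0.17 (adjusted p = 0.00311) without IR and 1.97 ± 0.17 (adjusted p = 0.00113) with IR. *Hspg2*, perlecan, the heparan sulfate proteoglycan of basement membranes, ranged from 7.62 to 8.03 in LN and from 7.74 to 8.24 in the tumor, and differed by 0.20 ± 0.17 without IR (adjusted p = 0.605).

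The laminins and nidogens, which build the basement membrane sheet, held 1 of 6 higher genes without IR and 2 of 6 with IR. *Lamc1*, the γ1 chain shared by most laminins, read 7.19 and 6.61 (no IR) and 7.60 and 6.71 (IR) in LN, and 9.14 and 9.12 (no IR) and 9.02 and 8.86 (IR) in the tumor. The tumor arrays lay close together, above LN arrays that were more spread. It was higher by 2.23 ± 0.31 (adjusted p = 0.00854) without IR and 1.78 ± 0.31 (adjusted p = 0.0187) with IR, and the call with IR was lost without either tumor array of that condition. *Nid1*, nidogen-1, the link between laminin and collagen IV, read 6.70 and 7.02 (no IR) and 5.96 and 6.42 (IR) in LN, and 6.75 and 7.28 (no IR) and 7.59 and 8.29 (IR) in the tumor. Without IR the tissues overlapped and differed by 0.15 ± 0.30 (adjusted p = 0.837), whereas with IR the difference was 1.75 ± 0.30 (adjusted p = 0.0176), a call lost without the second tumor IR array. *Lamb1*, the β1 chain, read 6.88 and 6.82 (no IR) and 6.93 and 6.88 (IR) in LN, and 7.66 and 7.33 (no IR) and 7.83 and 7.79 (IR) in the tumor. It was the only gene passing in neither condition whose 4 tumor arrays were all above its 4 LN arrays, and it fell short of the 2-fold limit at 0.64 ± 0.16 (adjusted p = 0.0683) without IR and 0.90 ± 0.16 (adjusted p = 0.0180) with IR. With T cell scaling *Lamb1* passed with IR. *Lama4*, *Lamb2* and *Nid2* differed by between −0.09 and 0.18 without IR and between −0.27 and 0.49 with IR. Both tumor arrays were above both LN arrays of the same condition for *Nid2* in either condition and for *Lama4* with IR, while those of *Lamb2* overlapped.

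Few genes of elastic fibres and microfibrils passed, 2 of 11 without IR and 3 of 11 with IR, all of them higher in the tumor. *Fbln2*, fibulin-2, which binds fibronectin, elastin and perlecan, read 6.02 and 5.89 (no IR) and 5.98 and 5.89 (IR) in LN, and 8.50 and 7.62 (no IR) and 9.22 and 8.77 (IR) in the tumor. The LN arrays were close together, and the first tumor array of each condition was the higher. It was higher by 2.11 ± 0.29 (adjusted p = 0.00848) without IR and 3.06 ± 0.29 (adjusted p = 0.00189) with IR. *Ltbp2*, a microfibril protein related to the latent TGFβ binding proteins but not itself a carrier of latent TGFβ, read 4.51 and 4.35 (no IR) and 4.42 and 4.61 (IR) in LN, under the lower quartile on all 4 arrays, and 6.34 and 5.32 (no IR) and 6.51 and 5.92 (IR) in the tumor. Here too the first tumor array of each condition was the higher, and the tissues did not overlap. Its differences were 1.40 ± 0.34 (adjusted p = 0.0683) without IR and 1.70 ± 0.34 (adjusted p = 0.0291) with IR. *Ltbp3*, which does carry latent TGFβ, was bright in both tissues, at 9.79 and 9.22 (no IR) and 9.47 and 8.50 (IR) in LN, and 10.30 and 10.25 (no IR) and 10.43 and 10.32 (IR) in the tumor. The tumor arrays were close together and all above the LN arrays, of which the second was the lower in each condition. The differences were 0.77 ± 0.33 (adjusted p = 0.285) without IR and 1.39 ± 0.33 (adjusted p = 0.0469) with IR, of which the second passed.

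The other 8 passed in neither condition. *Matn2*, matrilin-2, an adaptor of filamentous networks, read 7.07 and 9.14 (no IR) and 6.24 and 8.86 (IR) in LN, and 8.66 and 8.53 (no IR) and 9.38 and 9.95 (IR) in the tumor. The 2 LN arrays of each condition were more than 2 units apart, the first low and the second high, and the differences of 0.49 ± 0.90 (adjusted p = 0.825) without IR and 2.11 ± 0.90 (adjusted p = 0.213) with IR had the widest intervals of all 41 genes. *Matn2* counted as higher with IR in the robust fit and with a replicate block, both on all arrays, and with the second LN IR array left out. *Fbln1*, fibulin-1, ranged from 7.08 to 8.15 in LN and from 7.94 to 8.58 in the tumor. *Eln*, the elastin precursor, differed by −0.08 without IR (95% interval −0.45 to 0.29), *Mfap2* by −0.05 (−0.54 to 0.45), and *Emilin1* by −0.12 (−0.46 to 0.22). These intervals lie inside the 2-fold limit on both sides. *Mfap5*, *Fbln5* and *Ltbp1* had values between −0.33 and −0.10 without IR and between −0.23 and 0.11 with IR. The call of *Ltbp2* without IR was lost without the first or second LN array or the first tumor array of that condition, and also without either tumor IR array. With IR it was lost without the first tumor IR array, and the call of *Ltbp3* was lost without the second LN IR array or any one tumor array.

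Of the genes that process and crosslink collagen, 3 of 5 were higher in both conditions. *Serpinh1* encodes HSP47, the collagen-specific chaperone of the endoplasmic reticulum. It read 4.34 and 4.83 (no IR) and 4.70 and 5.17 (IR) in LN, under the lower quartile on all 4 arrays, and 8.64 and 8.31 (no IR) and 8.68 and 8.48 (IR) in the tumor. The 4 tumor arrays were tight and far above LN. The separation was 3.89 ± 0.24 (adjusted p = 0.000416) without IR and 3.65 ± 0.24 (adjusted p = 0.000445) with IR, the widest of this class. *Pcolce*, the enhancer of the protease that trims the procollagen C-terminus, read 6.43 and 6.36 (no IR) and 6.38 and 6.14 (IR) in LN, and 8.49 and 7.95 (no IR) and 8.30 and 8.17 (IR) in the tumor. The 4 LN arrays were tight, with all tumor arrays above them. It was higher by 1.83 ± 0.21 (adjusted p = 0.00370) without IR and 1.98 ± 0.21 (adjusted p = 0.00268) with IR. *Loxl1*, a lysyl oxidase needed for elastic fibres, read 5.45 and 5.82 (no IR) and 5.65 and 5.73 (IR) in LN, and 7.15 and 6.54 (no IR) and 6.83 and 6.93 (IR) in the tumor. The tissues did not overlap. It was higher by 1.21 ± 0.23 (adjusted p = 0.0276) without IR and 1.19 ± 0.23 (adjusted p = 0.0256) with IR, and the call without IR was lost without the first LN or the first tumor array of that condition, and with IR without either tumor IR array. *Lox*, lysyl oxidase itself, read 5.34 and 5.23 (no IR) and 5.07 and 5.46 (IR) in LN, and 5.00 and 4.87 (no IR) and 5.71 and 5.93 (IR) in the tumor. The 2 tumor IR arrays were the highest of the 8 and alone above their lower quartile, and the 2 tumor no IR arrays were the lowest. It passed in neither condition, at −0.35 ± 0.18 without IR (adjusted p = 0.392) and 0.55 ± 0.18 with IR (adjusted p = 0.115). *Loxl3* ranged from 6.12 to 7.12 in LN and from 6.69 to 7.57 in the tumor and did not pass either.

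**Figure D2:**
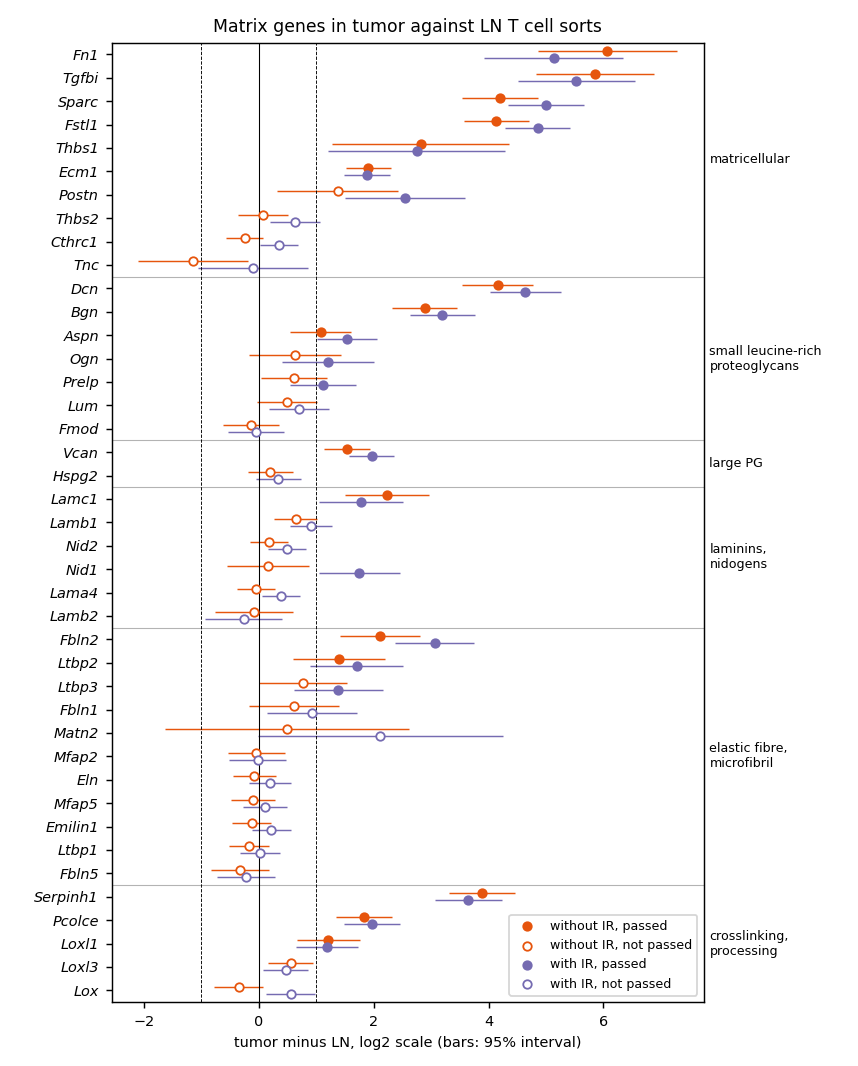
Tumor minus LN on the log2 scale (x axis) for each of the 41 matrix genes (rows, by role), without IR in orange and with IR in purple, as the fitted difference with its 95% interval from limma; filled points passed the test and dashed lines mark the 2-fold limit. The 16 filled orange points are all to the right of 0, led by *Fn1* at 6.07, and most intervals of elastic fibre and microfibril genes include 0.

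The probe sets of one gene did not always give the same picture. The 41 genes have 97 probe sets, and 33 genes have more than 1. Each gene is described above by its brightest probe set. Counting a gene when any of its probe sets passed gave 20 genes without IR, beside 5.57% of all genes, and 24 with IR, beside 6.28%. A gene with more probe sets can be counted more easily, and the shares of all genes were not matched for that number. None of the 97 was lower in the tumor, beside 1.42% of all genes without IR and 4.19% with IR by the same rule, and none passed for IR in LN (beside 1.06% higher and 0.522% lower) or in the tumor (beside 0.11% higher and 0.0275% lower). Of the 33 genes with more than 1 probe set, all probe sets passed for 7 without IR and for 10 with IR, and some but not all for 11 in each. Without IR, *Fn1*, *Sparc*, *Dcn*, *Fbln2*, *Loxl1*, *Aspn* and *Vcan* passed on their brightest probe set but not on every dimmer one. A dimmer probe set that did not pass differed by 0.49 for *Fn1*, −0.15 for *Sparc* and −0.17 for *Dcn*. For *Fbln2*, *Loxl1* and *Aspn* it differed by 0.06, 0.03 and 0.62.

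Genes gained from a dimmer probe set without IR were *Lamb1*, *Ltbp1*, *Ltbp3* and *Prelp*. A second *Ltbp1* probe set read 3.86 and 3.83 (no IR) and 3.46 and 2.82 (IR) in LN, and 7.82 and 7.40 (no IR) and 7.45 and 7.46 (IR) in the tumor. The brightest *Ltbp1* probe set overlapped between the tissues over all arrays (6.24 to 6.48 in LN and 6.00 to 6.47 in the tumor), and the third was under the lower quartile throughout. A second *Lamb1* probe set read 5.41 and 5.81 (no IR) and 4.81 and 5.18 (IR) in LN, and 8.99 and 8.80 (no IR) and 8.22 and 8.29 (IR) in the tumor, which is a wider separation than on the brightest one. *Vcan* has 8 probe sets, of which 4 separated the tissues and 4 were under the lower quartile on every array. A second *Lox* probe set read 4.75 and 4.51 (no IR) and 4.33 and 4.64 (IR) in LN, and 4.31 and 4.38 (no IR) and 5.95 and 5.56 (IR) in the tumor, and it passed with IR. Its LN and tumor no IR arrays were under the lower quartile, and the second tumor IR array was just above its own, 5.52. The third *Lox* probe set was under the lower quartile throughout and differed by −0.06 with IR. The transcripts that each probe set reads were not analysed here.

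**Figure D3:**
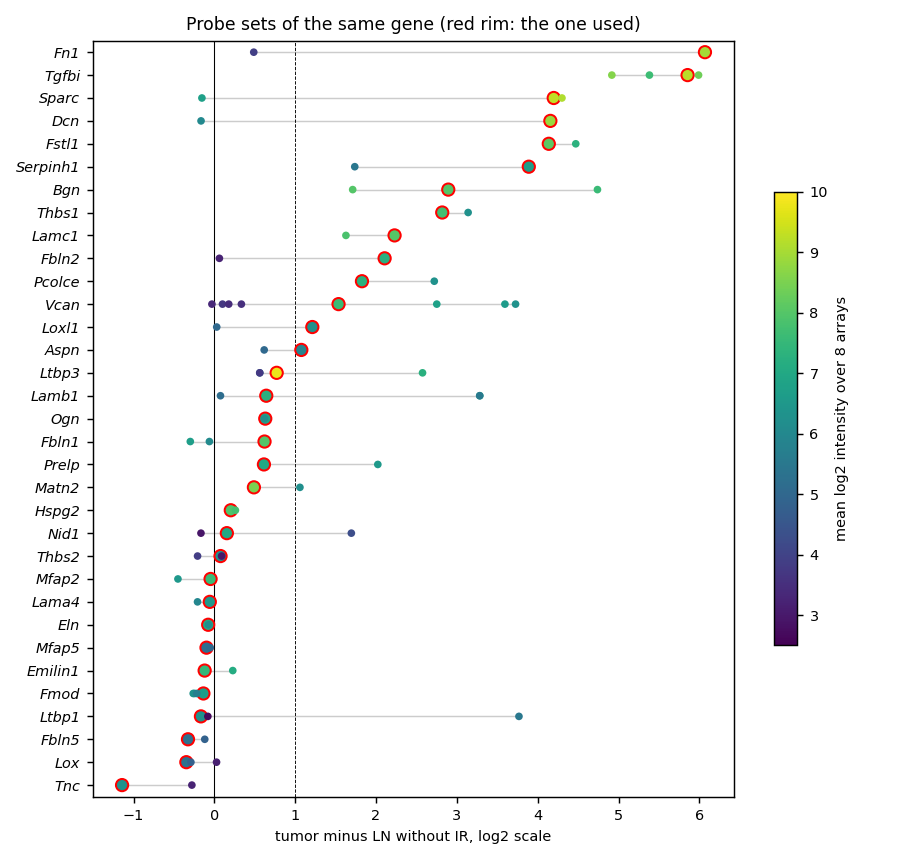
Tumor minus LN without IR on the log2 scale (x axis) for each probe set of the 33 matrix genes that have more than 1 (rows), coloured by the mean log2 intensity over the 8 arrays, with a red rim on the brightest probe set; the dashed line marks a 2-fold difference. *Ltbp1*, *Lamb1*, *Ltbp3* and *Prelp* have their brightest probe set left of the line and a dimmer one at 2.02 or more.

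Within the tumor groups, the genes that passed fell into those brighter on the second array of both groups and those brighter on the first. Of 21 genes higher in either comparison, 6 were brighter on the second array both without and with IR (*Fn1*, *Tgfbi*, *Thbs1*, *Postn*, *Ecm1* and *Nid1*) and 11 on the first (*Fstl1*, *Dcn*, *Prelp*, *Aspn*, *Vcan*, *Lamc1*, *Fbln2*, *Ltbp2*, *Ltbp3*, *Serpinh1* and *Pcolce*). The remaining 4 (*Sparc*, *Bgn*, *Ogn* and *Loxl1*) had opposite signs in the 2 groups. Same-numbered arrays of the 2 tumor groups also deviated together over all genes (correlation 0.43). The share of all genes with matching signs was not counted. Some differences were small: without IR *Lamc1*, *Ltbp3* and *Aspn* gave −0.02, −0.05 and −0.07, beside an SD of 0.27 over all genes. *Thbs1* was the widest apart, with the second array minus the first at 1.91 without IR and 1.45 with IR. *Fn1* gave 1.05 without IR and 1.04 with IR. At the other end *Ltbp2* gave −1.02 without IR and −0.58 with IR. Of 10 marker lists, 2 had the higher mean on the second array of both groups: the macrophage list, by 0.78 without IR and 1.36 with IR, and the pericyte list, by 0.72 without IR and 0.18 with IR. The pericyte value rested on *Rgs5* and *Abcc9*, and over the other 10 genes it was 0.20 without IR and −0.03 with IR. Another 4 lists had the higher mean on the first array of both groups, by small amounts. These were the fibroblast list at −0.20 without IR and −0.02 with IR, the T cell list at −0.03 without IR and −0.17 with IR, the endothelial list at −0.04 without IR and −0.13 with IR and the epithelial list at −0.16 without IR and −0.04 with IR. Of the pericyte list, *Rgs5* read 5.06 and 9.75 on the tumor arrays without IR and 9.04 and 10.35 with IR, and so was low on 1 tumor array alone. These are differences between single arrays and carry no test, and the part of each cell type in them was not tested.

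**Figure D4:**
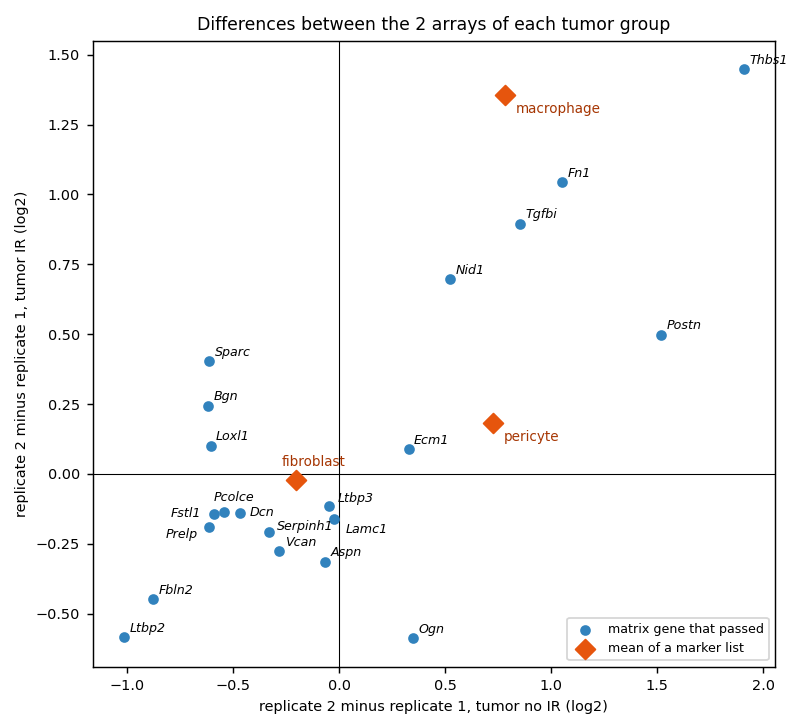
Second minus first array on the log2 scale in tumor no IR (x axis) and in tumor IR (y axis), for the 21 matrix genes higher in the tumor in either comparison (blue) and for the means of the macrophage, fibroblast and pericyte marker lists (orange). *Thbs1*, *Fn1* and *Tgfbi* are above 0 on both axes, as is the macrophage list, and 11 genes are below 0 on both, as are the fibroblast list and, not drawn, the T cell, endothelial and epithelial lists.

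None of the 41 genes passed the test for IR in either tissue. In the tumor 0 of 41 passed by limma, beside 0.0934% of all genes higher and 0.0055% lower. By value 37 of the 41 were above 0, beside 59.7% of all genes, with a median of 0.39 beside 0.09 over all genes, and 15 of 41 (36.6%) had an unadjusted p under 0.05, beside 16.6% of all genes. All 15 were above 0, and the smallest adjusted p was 0.246, for *Nid2*. Both tumor IR arrays were above both tumor no IR arrays for 27 of 41, beside 41.4% of all genes, and below them for 1, beside 26.0%. The lower quartile of intensity moved the same way, from 5.38 and 5.45 on the tumor arrays without IR to 5.52 and 5.57 with IR, and its part in these values was not tested. Most other lists moved up as well, with medians of 0.40 for epithelial, 0.38 for neutrophil, 0.38 for pericyte, 0.32 for LN stromal, 0.30 for endothelial, 0.30 for platelet, 0.28 for fibroblast and 0.23 for B cell markers, and 0.26 for other matrix genes. The macrophage and T cell lists moved down, with medians of −1.14 and −0.29. None of the genes in these lists passed, and their part was not tested.

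*Postn* had the largest value, 1.62 ± 0.45 (95% interval 0.57 to 2.68, adjusted p = 0.283), and counted as higher with a robust fit, with array weights and with only the 4 tumor arrays fitted. *Matn2* followed at 1.07 ± 0.90 (95% interval −1.06 to 3.20), then *Tnc* at 1.04 ± 0.40 (95% interval 0.08 to 1.99). *Tnc* counted as higher with array weights, and both with only the 4 tumor arrays fitted. *Fbln2*, *Nid1* and *Lox* had values of 0.94, 0.92 and 0.88, with adjusted p of 0.296, 0.297 and 0.248. *Fn1*, *Tgfbi*, *Lamc1* and *Aspn* were the 4 genes below 0. The 95% interval of *Fn1* was −1.87 to 0.55 around −0.66, which leaves a change of 2-fold in the lower direction within it.

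In LN 0 of 41 passed by limma, beside 0.786% of all genes higher and 0.264% lower, and 5 of 41 had an unadjusted p under 0.05, beside 14.3% of all genes. *Loxl3* was the highest, at 6.30 and 6.12 without IR and 6.88 and 7.12 with IR. The difference of 0.79 ± 0.16 (adjusted p = 0.108) was short of both limits, and with T cell scaling it passed. *Nid2* and *Lum* were above 0 by value as well (0.41 and 0.60), and *Sparc* and *Aspn* below (−0.69 and −0.58). The median over the 41 was 0.06, beside 0.01 over all genes. Both LN IR arrays were above both LN no IR arrays for 12 of 41, beside 21.8% of all genes, and below them for 4, beside 19.5%.

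The IR effect was also compared between the tissues, and 0 of 41 differed by limma, as did 0.0% of all genes. Unadjusted p was under 0.05 for 3 of 41, or 7.32%, which is near the 5.63% of all genes. For those 3 the IR value was higher in the tumor than in LN. *Nid1* differed by 1.60 ± 0.43 (95% interval 0.59 to 2.60), *Lox* by 0.90 ± 0.26 (0.30 to 1.50) and *Cthrc1* by 0.60 ± 0.19 (0.14 to 1.06), each with an adjusted p of 0.758. A robust fit counted 0 in LN, 1 in the tumor and 0 for the comparison of the effects.

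**Figure D5:**
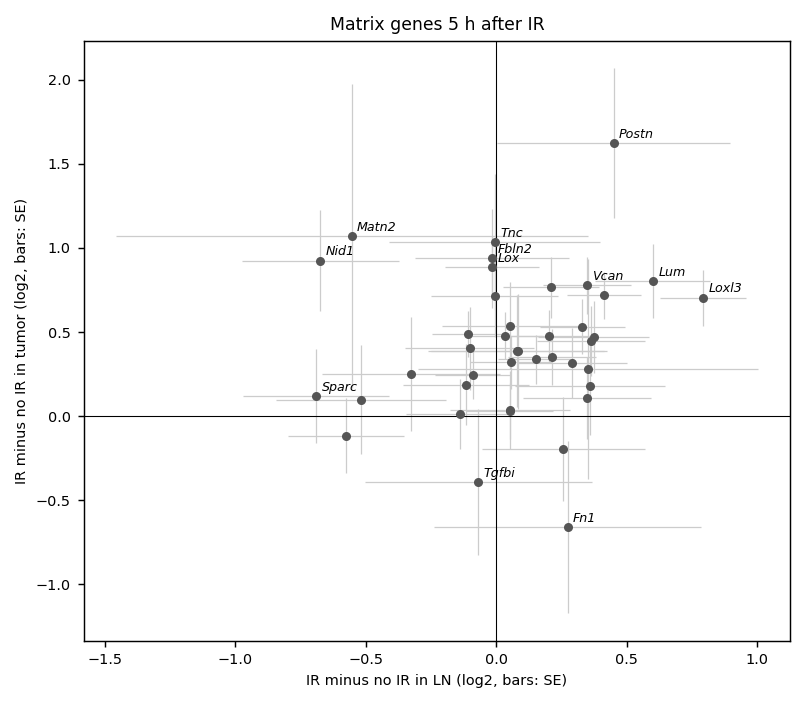
IR minus no IR on the log2 scale in LN (x axis) and in the tumor (y axis) for the 41 matrix genes, 5 h after 5 Gy, with bars for the SE of each difference. *Postn* is the highest point at 1.62 in the tumor, 37 points lie above 0 on the y axis, and none passed the test in either tissue.

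The count was also taken over matrix genes outside these 44. Of 71 further glycoproteins, proteoglycans, syndecans, glypicans and matrix enzymes listed, 68 were measured. Without IR 15 of the 68 were higher in the tumor, beside 4.5% of all genes, and 0 lower, beside 1.04%. The median was 0.04, beside −0.09 over all genes. The 4 largest differences were those of *Ccn1*, *Emilin2*, *Sdc2* and *Ltbp4*, at 3.90, 3.54, 3.45 and 2.84. With IR 14 were higher, beside 4.8% of all genes, and 1 was lower, beside 2.0%. The lower gene was *Agrn* (agrin, a heparan sulfate proteoglycan), with tumor minus LN at −2.02 (limma adjusted p = 0.00631). *Agrn* was also the one gene of that list higher with IR in LN, beside 0.786% of all genes, by 2.71 (limma adjusted p = 0.0103). For IR in the tumor 0 of that list passed, beside 0.0934% of all genes higher and 0.0055% lower. That list too was chosen with earlier results of these data known, and the difference between its 68 genes and the 41 was not tested.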

How the data were processed

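Gene expression was measured on Affymetrix whole-genome mouse arrays, 1 for each of 8 samples. The authors normalized the scanned arrays with RMA (version not given in the sources used here), which subtracts background, brings the arrays to one distribution and summarises probes into probe sets, and deposited a table of log2 intensity values for 45101 probe sets. Those values were used as deposited, with 0 columns of other samples. RMA equalises the arrays, so that a change in total RNA per cell is not seen, and intensities of different probe sets are not comparable as levels. Array number limits the precision.

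Probe sets were named from the platform annotation: 34945 carry 1 gene symbol, 932 several and 9160 none, and 64 are controls. Each of 18193 genes was represented by its brightest single-gene probe set on average. A least squares model with a mean for each of the 4 groups was fitted to the 35877 annotated probe sets (limma 3.58.1, R 4.3.3), with moderated variances (4 residual and 3.13 prior degrees of freedom) and Benjamini-Hochberg adjustment over all of them. A gene passed where its means differed by 1 or more on the log2 scale and the adjusted p was below 0.1, thresholds taken from the study's methods. Those methods used a robust fit together with SAM. The robust fit was run as an alternative and SAM was not run. A two-sided exact permutation test of 2 arrays against 2 cannot give a p under 0.333, and none is printed. The fit was also run on simulated data with noise independent between arrays. In the data, arrays numbered 1 deviated together within a tissue, so that run does not match them, and no result rests on it.

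The members and all lists were chosen with earlier results of these data known. The rule gave array values to members that passed between tissues and ranges to the rest, with others named where they bear on a result, and marker genes by list. Counting a gene by any of its probe sets was added after the data were seen. The lower quartile of intensity was 5.38 to 5.59 over the arrays and served to call a gene dim. Promoters came from RefSeq (GRCm38.p6), where 27 of the 41 measured members have an entry, and protein sequences were not used here. Alternatives were the robust fit, the replicate number as a block, fits of only the arrays compared, array weights, a mean-variance trend, scaling to T cell markers, cyclic loess, leaving out the dimmer 50% of probe sets, other probe set rules, other thresholds and leaving out each array.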

Additional observations from a re-analysis of the deposited data

How the results depend on the processing

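The count of matrix genes higher in the tumor, 16 without IR and 21 with IR, was 17 and 22 with a replicate block, which added *Postn* without IR and *Matn2* with IR. The study made 2 experiments of 4 samples each, but the labels do not say that the replicate number marks the experiment. The arrays numbered 1 deviated together within a tissue (correlation 0.43 in LN and 0.43 in the tumor) but not between LN IR and tumor IR (−0.14), so the block is given here alone. It changed no count of these genes by more than 1.5 times. Leaving out each array in turn gave 13 to 16 genes without IR, 13 to 20 with IR (13 without the second tumor IR array), 0 to 1 for IR in LN (*Ltbp3*, lower, without the first LN IR array), and 0 for IR in the tumor and for the IR effect between tissues. With the dimmer 50% of probe sets left out the count with IR was 13, since fewer genes were tested. For IR in LN, scaling to T cell markers gave 1 gene (*Loxl3*). For IR in the tumor, the robust fit gave 1 (*Postn*), array weights 2 (*Postn* and *Tnc*) and the 4 arrays compared alone 3 (*Postn*, *Tnc* and *Matn2*), and the cause was not tested. The median difference of 0.62 without IR became 1.87 with dim probe sets left out (over the 20 genes still tested). It was 0.89 with T cell scaling (which moved the median of all genes to 0.18) and 1.21 with the most variable probe set. With the mean of all probe sets it was 0.77, and without single arrays 0.48 to 0.64. With IR the median of 1.19 became 1.97, 1.41 (all genes 0.27), 1.70 and 1.42 in the same order, and 0.95 to 1.23 without single arrays. Leaving out dim probe sets and taking the most variable one both choose by values that include the tumor arrays, as does the main rule. Those medians are therefore no independent check. None of the 16 and 21 genes that passed changed sign in an alternative run for it. Outside them, *Ltbp1* without IR went from −0.17 to 3.77 with its most variable probe set and 1.17 with the mean of its probe sets. Of the genes that passed, 11 of 16 without IR and 10 of 21 with IR passed under every alternative and without every single array. *Serpinh1* in both conditions and *Aspn* with IR passed in all except the one that left out dim probe sets, where they were not tested.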
